A study of Mus musculus with 8 samples.

Results

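The genes described here encode the initiation and elongation factors of translation, measured by RNA sequencing in J774A.1 cells, a mouse macrophage line. They were chosen by name: all genes whose symbol starts with Eif followed by a digit from 1 to 6, or with Eef, without the eIF2 kinases Eif2ak1 to Eif2ak4, names ending in -ps and genes with a mean under 1 TPM. TPM divides the reads of a gene by its length and scales each library to a common total, so that levels can be compared between genes. Of 86 matching names, 4 kinases and 1 pseudogene were left out by name and 18 for their level. The remaining 63 genes, of 11796 tested and 55487 listed, are 62 protein-coding genes and the processed pseudogene Eif4a-ps4, whose name ends in a number after -ps. Just inside the minimum were Eif4ebp3 at a mean of 1.54 TPM, Eif4a-ps4 at 4.58 and Eif4e3 at 5.32. Just outside it were Eef1a1-ps1 at 0.674 TPM, Eef1akmt3 at 0.668 and Eif2s3x-ps1 at 0.495, and 8 of the 18 genes left out were at 0 in all 8 libraries. The choice compared no groups, but the mean was taken over all 8 libraries. Eif4a-ps4, at 0 TPM in the LPS libraries, met the minimum only through its LPS+UDCA libraries.

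The control cells were given LPS, a component of bacterial outer membranes to which macrophages respond, at 1 μg/mL. The other group was given the same LPS and UDCA (ursodeoxycholic acid, a secondary bile acid) at 1 mM. RNA was taken after 24 h, with 4 libraries per group, and no group without LPS was analysed here. All libraries come from 1 cell line, and where nothing says that they came from separate cultures, p-values measure only the spread between these libraries, which may be technical.

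Translation starts when a complex of eIF2, GTP and initiator tRNA joins the small ribosomal subunit together with eIF1, eIF1A, eIF3 and eIF5, while the eIF4 factors bind the mRNA cap and bring the mRNA to that subunit. The complex scans to a start codon, eIF5B joins the large subunit, and the elongation factors eEF1 and eEF2 then deliver aminoacyl-tRNA and move the ribosome along. In macrophages that respond to LPS, translation is known to be regulated through phosphorylation of eIF2, through mTORC1 and the eIF4E-binding proteins, and through the kinases that phosphorylate eIF4E.

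The genes of the translation factors changed in both directions with UDCA. At an FDR under 0.05 from limma, a moderated linear model fitted to log2(TPM + 1) of all genes tested, 27 of the 63 genes were higher in LPS+UDCA (42.9%) and 21 were lower (33.3%), and the other 15 did not pass. Over all genes tested, 40.2% were higher and 32.3% lower, which is also the background for the counts of each role group below. Those shares are close to the ones among the translation factors. The balance turned with the scaling, to 25 higher and 28 lower with median-of-ratios size factors and to 25 and 29 with the median of all genes subtracted. The shares over all genes tested moved the same way. They were 36.4% higher and 36.4% lower with size factors, and 35.3% and 36.6% with the median subtracted. The fold changes were mostly small. Only Eef1akmt2, Eif4a2, Eif5 and the pseudogene Eif4a-ps4 also reached a 2-fold difference, all 4 upward (6.35% of 63), and 0 genes did so downward, where 8.71% of all genes tested were past both thresholds upward and 8.44% downward. LPS and LPS+UDCA libraries did not overlap for 45 of the 63 genes (71.4%), against 66.8% of all genes tested. Without the pseudogene, which was at 0 TPM in all LPS libraries, 26 of 62 genes were higher (41.9%) and 21 lower (33.9%). Then 3 genes passed both thresholds upward (4.84%), and the libraries of 44 did not overlap (71.0%). The median log2 fold change was 0.011 for the translation factors and 0.082 for all genes tested, and without the pseudogene it was 0.0069. The median SD between replicates over all genes tested was 0.122 on the same scale. Fold changes are log2 differences of TPM + 1, which understates those of genes with low TPM, and in bulk RNA fewer cells of a type and less RNA per cell cannot be told apart.

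**Figure D1:**
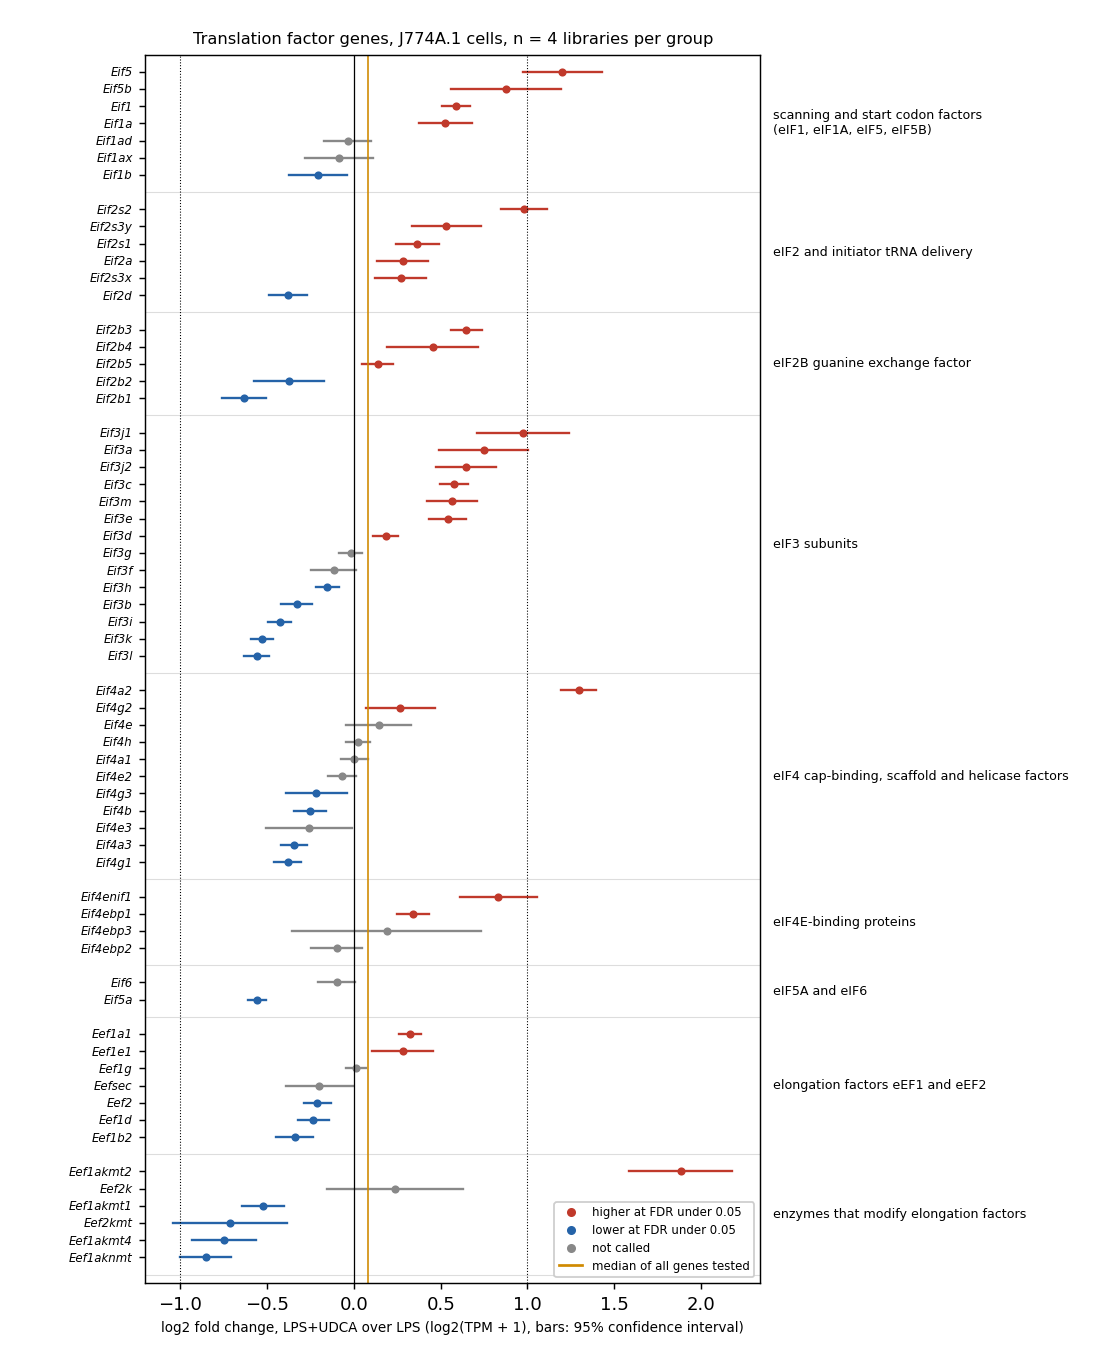
The plot shows the log2 fold change (LPS+UDCA over LPS, on log2(TPM + 1)) of the 62 protein-coding translation factor genes, grouped by role, with 95% confidence intervals and the median of all genes tested as a line. Genes called higher and lower at an FDR under 0.05 occur side by side in most role groups, from Eef1akmt2 at 1.88 to Eef1aknmt at -0.85.

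As a check of the labelled cell type, all 8 macrophage markers (Adgre1, Itgam, Cd68, Csf1r, Fcgr1, Ptprc, Spi1 and Lyz2) were detected in each library. Their summed level was 3100 to 3258 TPM under LPS and 1221 to 1343 TPM under LPS+UDCA, with Lyz2 at means of 1988 and 436 TPM, whereas Adgre1 was at 46.6 and 114 TPM and Fcgr1 at 37.7 and 107 TPM. Markers of fibroblasts, epithelium and T cells summed to at most 0.12 TPM per cell type in a library, with Dcn, Epcam, Krt18, Cd3e and Cd3g at 0 in all libraries. The B cell gene Cd79a reached 0.47 TPM in a library. The TPM of all listed genes summed to 973190 to 977485 under LPS and to 958918 to 962737 under LPS+UDCA, so that the values of each group are shares of slightly different totals. The part of the macrophage marker levels and of these totals in the results on the translation factors was not tested. TPM keeps no read number, and the depth behind these values is unknown.

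The promoters of the translation factors were compared with the direction of change. RefSeq gave a promoter window, from 250 bases before to 50 bases after an annotated start, for 48 of the 63 genes. The E-box CACGTG, whose letters read the same on both strands and which MYC and related factors bind, occurred in a window of 13 of the 48 genes (27.1%). It occurred in 12.3% of the 8791 tested genes with a window and in 7.15% of all 32851 windows. Of the 13 genes with an E-box, 7 were lower, 5 were not called and 1 was higher, with a median log2 fold change of -0.21. Of the 35 without one, 10 were lower and 19 higher, with a median of 0.18. Over all genes tested the split was not seen, with 40.0% higher and 34.3% lower among 1077 genes with an E-box and 41.0% higher and 33.7% lower among 7714 without. These are descriptions of letters in a window, not of bound sites. When a trend with GC content was removed, Eef2 (-0.03) and Eif1b (-0.11) lost their calls as lower. In that fit Eif3f (-0.15) and Eif4e (-0.34) gained a call as lower and Eif4h (0.16) as higher. The call of Eif1b was also lost in some fits without 1 library. The part of GC content in the split by E-box was not tested. The windows of 6 of the 7 lower genes are printed here as the RefSeq sequence of GRCm38.p6 from 150 bases before to 20 bases after the start, 5′ to 3′ on the strand of the gene, with the E-box in capitals, to show where it lies.
Eef1aknmt, chr1:162548326-162548495, minus strand: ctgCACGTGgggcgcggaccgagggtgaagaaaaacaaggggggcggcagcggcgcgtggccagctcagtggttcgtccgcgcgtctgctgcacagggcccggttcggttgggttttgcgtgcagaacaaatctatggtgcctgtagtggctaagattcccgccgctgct
Eef1akmt4, chr16:20611451-20611620, plus strand: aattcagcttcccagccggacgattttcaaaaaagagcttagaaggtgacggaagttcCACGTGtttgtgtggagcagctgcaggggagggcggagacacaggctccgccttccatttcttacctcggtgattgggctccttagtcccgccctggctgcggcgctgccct
Eif3k, chr7:28981869-28982038, minus strand: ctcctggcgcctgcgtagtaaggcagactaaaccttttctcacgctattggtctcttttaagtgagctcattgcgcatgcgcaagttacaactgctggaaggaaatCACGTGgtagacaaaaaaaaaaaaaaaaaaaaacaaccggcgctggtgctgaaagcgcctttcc
Eif4g1, chr16:20672577-20672746, plus strand: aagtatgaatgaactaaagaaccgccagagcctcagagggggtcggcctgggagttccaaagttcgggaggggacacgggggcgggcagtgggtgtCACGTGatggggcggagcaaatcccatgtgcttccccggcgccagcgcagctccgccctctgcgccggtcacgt
Eef2, chr10:81176481-81176650, plus strand: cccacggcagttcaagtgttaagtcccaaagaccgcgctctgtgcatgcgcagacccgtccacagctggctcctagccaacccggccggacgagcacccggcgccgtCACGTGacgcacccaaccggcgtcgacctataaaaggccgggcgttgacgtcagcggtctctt
Eif1b, chr9:120492456-120492625, plus strand: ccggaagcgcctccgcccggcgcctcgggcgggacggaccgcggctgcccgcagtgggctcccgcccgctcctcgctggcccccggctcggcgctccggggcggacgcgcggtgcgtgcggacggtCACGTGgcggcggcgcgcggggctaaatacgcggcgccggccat
The E-box starts 147 bases before the RefSeq start in Eef1aknmt, 92 in Eef1akmt4, 54 in Eif4g1, 44 in Eif3k, 43 in Eef2 and 24 in Eif1b. A second E-box of Eif4g1 starts after the RefSeq start and runs past the end of the printed window, so it is not in capitals. Eif5a, the seventh lower gene, has 6 RefSeq starts, 3 of them with an E-box, and is not printed. Eif3a, the only higher gene with an E-box, holds it 22 bases after its start. The same windows of the 3 protein-coding genes that rose past both thresholds hold no E-box and are printed for comparison.
Eif5, chr12:111537951-111538120, plus strand: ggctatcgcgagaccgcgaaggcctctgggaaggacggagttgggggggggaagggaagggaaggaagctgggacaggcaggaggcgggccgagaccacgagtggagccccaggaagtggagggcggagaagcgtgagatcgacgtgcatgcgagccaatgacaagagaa
Eif4a2, chr16:23107318-23107487, plus strand: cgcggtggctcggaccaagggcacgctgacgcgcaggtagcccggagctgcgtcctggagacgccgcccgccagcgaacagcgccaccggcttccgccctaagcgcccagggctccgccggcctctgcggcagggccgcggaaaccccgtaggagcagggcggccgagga
Eef1akmt2, chr7:132852628-132852797, minus strand: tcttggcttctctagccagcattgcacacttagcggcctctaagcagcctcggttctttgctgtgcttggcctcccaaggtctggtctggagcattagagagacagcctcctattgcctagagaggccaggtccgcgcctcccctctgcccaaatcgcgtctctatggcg
Of other motifs searched on both strands, the ETS motif CCGGAAGT occurred in 7 of the 48 genes (14.6%, against 10.3% of tested genes). The ATF4-type element TGATGNAAN occurred in Eef2k and Eif2s3x (4.17% against 2.79%), and the CRE TGACGTCA in Eef2 alone (2.08% against 3.82%). No motif in this set contains another.

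UDCA raised several genes of the factors that scan for and select the start codon. Of the 7 genes of eIF1, eIF1A, eIF5 and eIF5B, 4 were higher, 1 was lower and 2 were not called. Eif5, which makes eIF2 hydrolyse its GTP at the start codon and lies on chromosome 12 from 111538016 to 111546752 of GRCm38, was listed at 76.52, 60.85, 60.95 and 67.22 TPM in LPS replicates 1 to 4. In LPS+UDCA replicates 1 to 4 it was at 139.67, 136.61, 162.29 and 177.67 TPM, all above the LPS libraries, a log2 fold change of 1.2 (SE, the standard error, 0.101, adjusted p = 5.2e-06). The small nucleolar RNA gene Snora28 lies within it. Eif5b, whose product joins the large subunit, rose from 11.8 ± 2.02 to 22.5 ± 3.84 TPM (SD, n = 4). Eif1, which guards start codon choice, rose from 422 ± 7.86 to 637 ± 26.9 TPM, and Eif1a from 43.5 ± 3.23 to 63.1 ± 4.63 TPM, a call that was lost when a trend with GC content was removed (log2 fold change 0.02). The related Eif1b was at 36.1 ± 3.35 and 31.1 ± 2 TPM, lower at an adjusted p of 0.032, a call that was lost in 5 of the 8 fits without 1 library. It made up 7.87% ± 0.691 of the sum of Eif1 and Eif1b under LPS and 4.66% ± 0.395 under LPS+UDCA, with no overlap between the libraries. Eif1ax, the X-linked gene of eIF1A, and Eif1ad were not called, at log2 fold changes of -0.09 and -0.04, but Eif1ax was lower with the GC trend removed (-0.60, adjusted p = 0.00033 from limma). The 7 genes together summed to 761 to 780 TPM under LPS and to 1040 to 1136 TPM under LPS+UDCA.

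Genes of eIF2 itself were higher, and of the 6 genes for eIF2 and initiator tRNA delivery 5 rose and 1 fell. With the GC trend removed, Eif2s2 alone of these 5 kept its upward call. Eif2s1 (-0.10), Eif2s3x (-0.0056), Eif2s3y (0.0082) and Eif2a (-0.019) lost theirs. Eif2s1, Eif2s2, Eif2s3x and Eif2s3y, which encode its alpha, beta and gamma subunits, and Eif2a, a separate factor that can also bring initiator tRNA, all passed the test upward, and Eif2d, an unrelated factor with a similar activity, passed it downward. Eif2s2 was at 68.09, 63.12, 61.01 and 67.22 TPM in the LPS libraries. Under LPS+UDCA it was at 121.48, 121.22, 133.53 and 139.76 TPM, so that its lowest value with UDCA was well above its highest without it. Its log2 fold change of 0.98 (SE 0.0588, adjusted p = 6.3e-07) was just short of 2-fold. The alpha subunit gene Eif2s1, whose product is the target of the eIF2 kinases, rose less, from 44.7 ± 1.55 to 58.0 ± 3.93 TPM. Eif2s3x and Eif2s3y, the X-linked and Y-linked genes of the gamma subunit, had log2 fold changes of 0.27 and 0.53. The Y-linked Eif2s3y was listed at 14.94 to 27.8 TPM over the libraries. The sex of the animal behind the cell line was not checked here. Eif2s3y held 24.0% ± 1.12 of their sum under LPS and 27.8% ± 1.19 under LPS+UDCA. Of the 31-base words of Eif2s3x, 35.6% also occur in another gene, against 0.448% for Eif2s3y. Eif2d fell from 48.6 ± 1.84 to 37.2 ± 1.75 TPM, a log2 fold change of -0.38.

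The 5 genes of eIF2B, the factor that reloads eIF2 with GTP and that phosphorylated eIF2 inhibits, were all called, but in opposite directions. The call of Eif2b5 (log2 fold change 0.14) was lost with median-of-ratios size factors and with the median of all genes subtracted (0.06 in both). Eif2b3 and Eif2b5, which encode the catalytic gamma and epsilon subunits, and Eif2b4 (delta) were higher, and Eif2b1 (alpha) and Eif2b2 (beta) were lower. Eif2b3 rose from 45.7 ± 1.38 to 72.2 ± 1.88 TPM, a log2 fold change of 0.65. Eif2b1, on chromosome 5 from 124570213 to 124579131, was at 34.64, 33.80, 34.53 and 38.82 TPM under LPS. It was at 22.21, 22.80, 21.53 and 23.41 TPM under LPS+UDCA, lower in each library, with a log2 fold change of -0.63 (SE 0.0555, adjusted p = 7.0e-06). The sum of the 5 genes differed little, at 344 ± 17.7 and 342 ± 7.18 TPM, and the libraries overlapped.

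The subunits of eIF3, the large scaffold that holds the small ribosomal subunit ready for the mRNA, moved in both directions. Of 14 genes, 7 were higher, 5 were lower and 2 were not called. On the log2(TPM + 1) scale none reached 2-fold, although Eif3j1 did in its mean TPM (8.16 ± 1.07 and 17 ± 2.5) and with a pseudocount of 0.1 (log2 fold change 1.05). The higher genes were Eif3j1 (log2 fold change 0.97), Eif3a (0.75), Eif3j2 (0.65), Eif3c (0.58), Eif3m (0.57), Eif3e (0.54) and Eif3d (0.18). The lower genes were Eif3l (-0.56), Eif3k (-0.53), Eif3i (-0.43), Eif3b (-0.33) and Eif3h (-0.15). Eif3f and Eif3g did not pass, at -0.12 (95% confidence interval -0.25 to 0.01) and -0.02 (-0.09 to 0.05). Eif3a, Eif3c, Eif3e, Eif3f, Eif3h, Eif3k, Eif3l and Eif3m encode the PCI and MPN domain core of the complex, so that subunits of 1 core moved apart, and Eif3b, Eif3g and Eif3i encode a module at its side. Eif3k and Eif3l, which bind each other within the core, were the lowest of its genes. The genes other than Eif3j1 and Eif3l are named here with their values seen, since the whole complex is described.

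**Figure D2:**
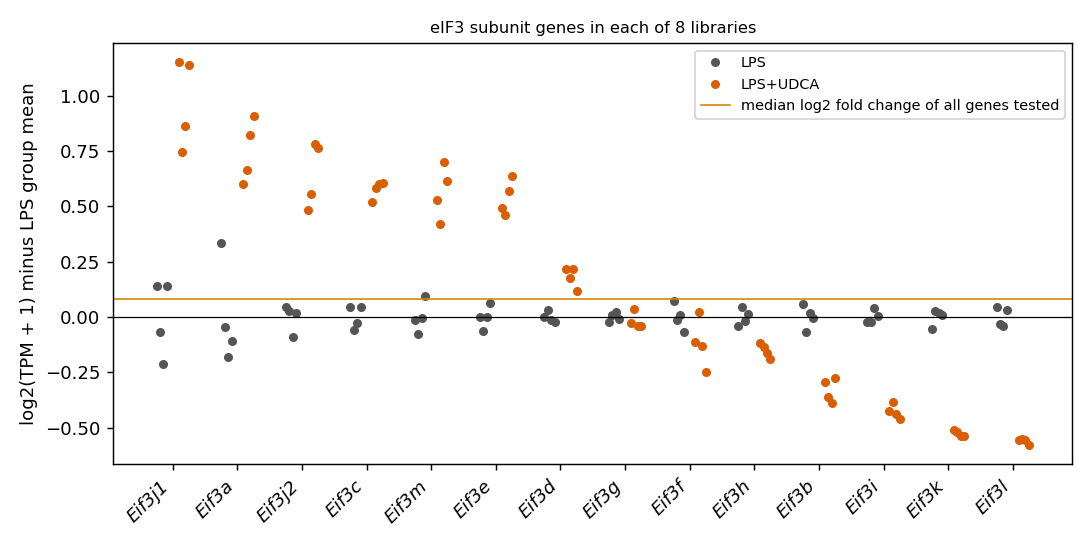
Each point is log2(TPM + 1) of 1 eIF3 subunit gene in 1 library minus the mean of the 4 LPS libraries, with the median log2 fold change of all genes tested (0.082) as a line. The LPS+UDCA points of Eif3j1, Eif3a, Eif3c, Eif3m and Eif3e lie above all LPS points of the gene, and those of Eif3l, Eif3k, Eif3i and Eif3b lie below them.

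Eif3l, on chromosome 15 from 79075179 to 79094405, was at 201.15, 190.69, 189.76 and 199.45 TPM under LPS. It was at 132.58, 132.93, 132.57 and 130.36 TPM under LPS+UDCA, a narrow range wholly below the LPS libraries (log2 fold change -0.56, SE 0.0319, adjusted p = 4.6e-07). Eif3k fell from 553 ± 14.2 to 383 ± 4.02 TPM and Eif3i from 461 ± 9.63 to 343 ± 7.45 TPM. In the other direction, Eif3c rose from 310 ± 11.3 to 463 ± 12.5 TPM and Eif3a, the largest subunit, from 77.9 ± 13.3 to 131 ± 13 TPM. The 14 genes together were at 3479 ± 14.9 TPM under LPS and 3374 ± 13.5 TPM under LPS+UDCA, a ratio of 0.970. Eif3j1 and Eif3j2 cannot be fully separated, since 94.9% of the 31-base words of Eif3j2 also occur in Eif3j1 or another gene. Their sum was 27.3 ± 1.82 TPM under LPS and 47.7 ± 3.96 TPM under LPS+UDCA. For Eif3d, 40.2% of the words are shared, nearly all with the antisense gene Gm17638, and the strand setting of the counting is not given in the sources used here.

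The eIF4 factors, which bind the cap, join it to the ribosome and unwind the mRNA, were mixed, with 2 of 11 genes higher, 4 lower and 5 not called. The helicase gene Eif4a2 was the only one past 2-fold. It was listed at 38.07, 37.58, 35.99 and 39.42 TPM under LPS. Under LPS+UDCA it was at 90.25, 91.49, 98.50 and 96.08 TPM, more than double in each library, with a log2 fold change of 1.29 (SE 0.0449, adjusted p = 2.6e-08). Eif4a2 lies on chromosome 16 from 23107444 to 23114136. Small RNA genes including Snord2 and Snora81 lie within it, Rfc4 overlaps it on the other strand, and 19.6% of its words are shared with other genes. Its closest relative Eif4a1, which encodes the main helicase of the same kind, was at 848.40, 901.38, 906.43 and 933.98 TPM under LPS and at 891.00, 896.31, 922.08 and 886.62 TPM under LPS+UDCA. The libraries overlapped and the log2 fold change was 0.003 (95% confidence interval -0.07 to 0.08). Eif4a2 thus made up 4.04% ± 0.196 of the sum of both genes under LPS and 9.47% ± 0.286 under LPS+UDCA.

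The pseudogene Eif4a-ps4, on chromosome 1 from 60703932 to 60705149, was listed at 0 TPM in all 4 LPS libraries. LPS+UDCA replicates 1 to 4 gave 18.76, 10.08, 0.05 and 7.75 TPM. It passed the test (adjusted p = 0.0094 from limma), but it met the 1 TPM minimum only through its LPS+UDCA libraries, so this call carries no weight. No fold is given against a group at 0, and replicate 3 was close to 0. Of its 31-base words, 97.4% also occur in Eif4a1, so that its reads and those of Eif4a1 could be exchanged in the counting. The sum of Eif4a1 and Eif4a-ps4 was 898 ± 35.8 TPM under LPS and 908 ± 11.4 TPM under LPS+UDCA.

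The scaffold genes of the eIF4G family differed in direction. Eif4g1, the main scaffold gene, which carries a site for eIF4E, fell from 190 ± 6.28 to 145 ± 2.61 TPM (log2 fold change -0.38), and Eif4g3 was at 32 ± 2.12 and 27.5 ± 2.93 TPM (-0.22). Eif4g2, a related gene whose product lacks the eIF4E site, was at 413 ± 50.9 and 495 ± 37.1 TPM (0.27). The calls of Eif4g2 and Eif4g3 were lost in 3 and 5 of the 8 fits without 1 library. Eif4b, which helps the helicase, and Eif4a3, a helicase of the exon junction complex, fell by 0.25 and 0.35 on the log2 scale. The cap-binding genes were not called, whereas with the GC trend removed all were lower (Eif4e -0.34, Eif4e2 -0.12 and Eif4e3 -0.48 on the log2 scale). Eif4e was at 99.4 ± 6.02 and 110 ± 13 TPM (log2 fold change 0.14, 95% confidence interval -0.04 to 0.33), Eif4e2 at 166 ± 2.71 and 158 ± 5.82 TPM, and Eif4e3 at 5.89 ± 0.756 and 4.76 ± 0.612 TPM.

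Among the 4 genes of proteins that bind eIF4E and keep it from the scaffold, 2 were higher and 0 were lower. Eif4enif1, which carries eIF4E into the nucleus, rose from 26.6 ± 3.64 to 47.9 ± 3.35 TPM, a log2 fold change of 0.83. Eif4ebp1, the most abundant of the group and a target of mTORC1, rose from 185 ± 4.35 to 235 ± 11.3 TPM. Eif4ebp2 was at 16.4 ± 0.671 and 15.3 ± 1.15 TPM and was not called, but it was called lower with median-of-ratios size factors (log2 fold change -0.17). Eif4ebp3 was at 1.34 ± 0.413 and 1.74 ± 0.840 TPM and was not called, and 66.4% of its words are shared with an overlapping gene.

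Eif5a, whose product carries the modified residue hypusine and helps the ribosome past difficult stretches, was lower, and its replicates lay close together. It was at 1710.58, 1710.49, 1732.69 and 1709.08 TPM under LPS. Under LPS+UDCA it was at 1188.91, 1169.87, 1161.31 and 1136.08 TPM, every library below those under LPS, with a log2 fold change of -0.56 (SE 0.0236, adjusted p = 7.6e-08). The gene lies on chromosome 11 from 69916714 to 69921958. Eif6, which keeps the large subunit from joining too early, was not called, at 247 ± 9.38 and 231 ± 13 TPM (log2 fold change -0.10, 95% confidence interval -0.20 to 0.01).

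The elongation factor genes held most of the summed TPM. Eef1a1, which encodes the carrier of aminoacyl-tRNA and lies on chromosome 9 from 78478449 to 78489151, was at 17341, 18103, 18042 and 18424 TPM under LPS. Under LPS+UDCA it was at 22449, 22085, 23249 and 22112 TPM, above all LPS libraries, with a log2 fold change of 0.32 (SE 0.0275, adjusted p = 5.9e-06). Of its words, 51.5% also occur in other genes, with Gm13456 holding more of them than any other. Eef2, the translocase that moves the ribosome, went the other way, from 3522, 3407, 3335 and 3313 TPM to 3024, 3030, 2877 and 2807 TPM (log2 fold change -0.21, SE 0.0338, adjusted p = 0.00038). Eef1b2, the nucleotide exchange subunit for eEF1A, was at 1174, 1269, 1347 and 1320 TPM under LPS. It was at 1045, 987, 966 and 1030 TPM under LPS+UDCA, lower in each library (log2 fold change -0.34, SE 0.0466, adjusted p = 0.00013). Eef1d, another exchange subunit, fell from 290.0 ± 10.6 to 247 ± 9.32 TPM, while Eef1g, a further eEF1 subunit gene, was not called, at 746 ± 2.27 and 752 ± 17.3 TPM. Eef1e1, a part of the multi-tRNA synthetase complex, rose by 0.28 on the log2 scale, and Eefsec, the selenocysteine elongation factor, was not called at -0.20. With the GC trend removed the calls of Eef2 (-0.03), Eef1d (-0.08) and Eef1e1 (0.01) were lost.

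Summed over the 63 genes, the translation factors were at 33329 ± 423 TPM under LPS and 36887 ± 448 TPM under LPS+UDCA, a ratio of 1.11. Eef1a1 alone set the direction. Without it the sum was 15351 ± 72.8 TPM under LPS and 14413 ± 141 TPM under LPS+UDCA, a ratio of 0.939. By role, the ratio of the sums was 1.41 for the scanning factors, 1.35 for eIF2 and initiator tRNA delivery, 1.31 for the eIF4E-binding proteins and 1.16 for eEF1 and eEF2. It was 1.01 for the eIF4 factors, 0.993 for eIF2B, 0.970 for eIF3, 0.806 for the enzymes that modify elongation factors and 0.711 for eIF5A and eIF6. A sum follows its most abundant gene, and these sums are given as values with no test.

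**Figure D3:**
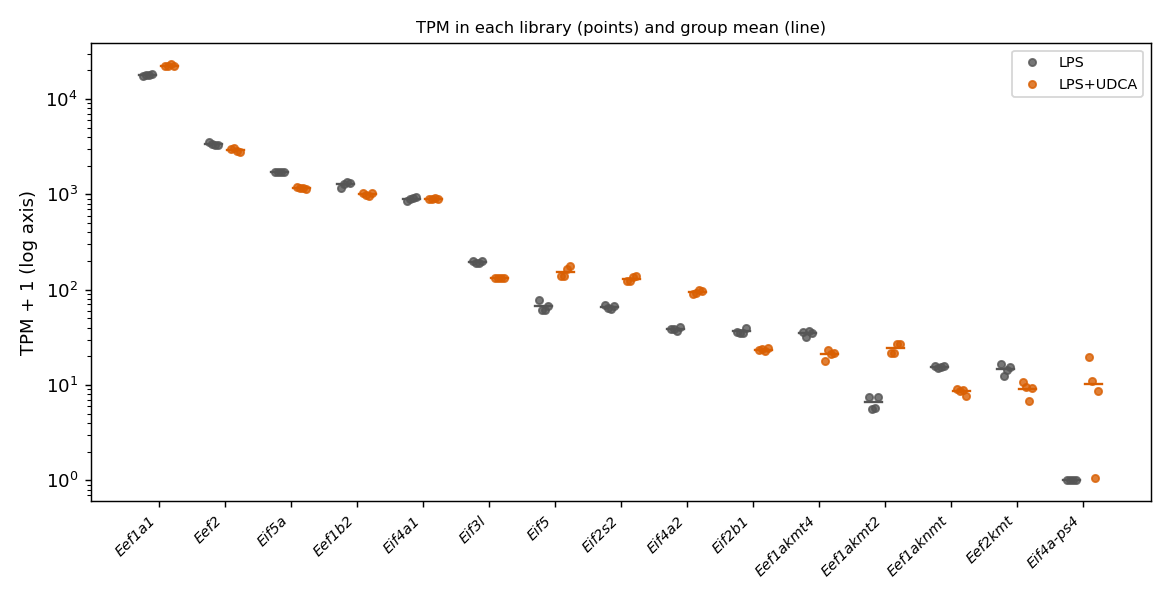
TPM + 1 in each library (points, log axis) and the group mean (line) are shown for the 5 most abundant translation factor genes, the 5 with the highest and the 5 with the lowest log2 fold changes. Eef1a1 lies far above the others, the groups overlap for Eif4a1, and Eif4a-ps4 is at 0 TPM in the LPS libraries and near 0 in 1 LPS+UDCA library.

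The enzymes that modify the elongation factors were mostly lower. Of 6 genes, 4 fell, Eef1akmt2 rose and Eef2k was not called. Eef1akmt2, a lysine methyltransferase of eEF1A, was at 6.54, 4.56, 4.8 and 6.47 TPM under LPS. Under LPS+UDCA it was at 20.46, 20.61, 26.15 and 25.71 TPM, the highest fold change of all the protein-coding translation factor genes (log2 1.88, SE 0.131, adjusted p = 1.6e-06). It lies on chromosome 7 from 132827457 to 132852673 and overlaps Fgfr2 and Gm45501 on the same strand, with 4.84% of its words shared with other genes. Eef1aknmt, which methylates eEF1A at its N terminus and at a lysine, had the lowest log2 fold change. It was at 14.8, 13.98, 14.32 and 14.83 TPM under LPS and at 8.06, 7.66, 7.83 and 6.76 TPM under LPS+UDCA, with no overlap (log2 fold change -0.85, SE 0.0654, adjusted p = 2.9e-06). Eef1akmt4, another lysine methyltransferase of eEF1A, was at 35.10, 30.99, 35.83 and 34.46 TPM under LPS and at 17, 22.12, 20.04 and 20.57 TPM under LPS+UDCA. Its log2 fold change was -0.75 (SE 0.0818, adjusted p = 3.0e-05), and 31.2% of its words are shared, mostly with Gm49333, which overlaps it on the same strand. Eef2kmt, which methylates eEF2, was at 15.75, 11.5, 13.50 and 14.57 TPM under LPS and at 9.70, 8.64, 5.83 and 8.26 TPM under LPS+UDCA. Its log2 fold change was -0.71 (SE 0.144, adjusted p = 0.0016), and it overlaps Alg1 on the other strand. Eef1akmt1, a further lysine methyltransferase of eEF1A, fell from 55.0 ± 1.70 to 38.0 ± 2.39 TPM. Eef2k, the kinase that inhibits eEF2, was at 5.74 ± 1.39 and 6.92 ± 1.57 TPM (log2 fold change 0.24, 95% confidence interval -0.16 to 0.63).

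The direction of change went with the base composition of the transcripts. The GC content of the longest protein-coding transcript had a median of 43.9% in the 26 higher protein-coding genes, 52.9% in the 21 lower ones and 50.6% in the 15 not called. Over all genes tested the medians were 47.7% in the higher and 52.7% in the lower genes. Of the 31 translation factor genes with the lower GC content (up to 50.2%), 22 were higher and 2 were lower, and of the 31 with the higher GC content 4 were higher and 19 were lower. The same split was not counted over all genes tested, so these counts have no background. Eif2b4 was a higher gene at 56.8% GC, and Eef1b2 a lower gene at 46.2%. As a description over genes, which share libraries and are not independent, Spearman's rho between GC content and log2 fold change was -0.61 (Pearson's r -0.62) over the 62 genes and -0.29 (-0.24) over 10442 tested genes. Transcript length had a rho of 0.20 and 0.19 in the same sets.

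**Figure D4:**
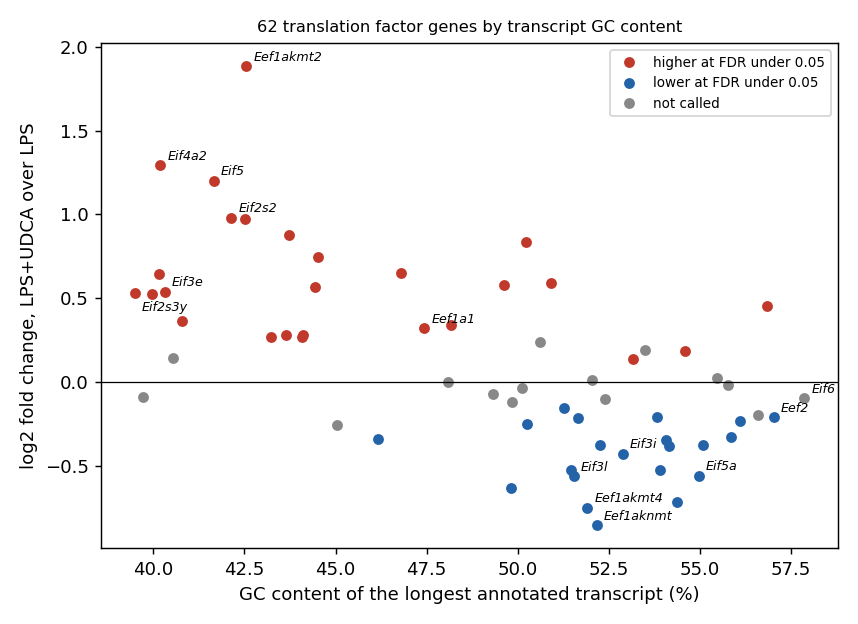
Each point is 1 of the 62 protein-coding translation factor genes, with the GC content of its longest protein-coding transcript (%) against its log2 fold change, LPS+UDCA over LPS. Most higher genes lie under 47% GC and most lower genes lie above 50%, with Eef1akmt2, Eif4a2 and Eif5 at the upper left.

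A trend with GC content that all genes share was therefore removed from each library, an alternative chosen after seeing the data. The counts were then 22 higher and 23 lower, so that 48.9% of the called genes were higher in place of 56.3%. Over all genes in that fit, 37.2% were higher and 36.8% lower. Of the 48 calls, 37 were kept and 11 were lost, and 8 genes were gained. These counts of the translation factors include the pseudogene Eif4a-ps4, which stayed higher. Eif4a2 and Eif5 remained higher but under 2-fold, at log2 fold changes of 0.80 and 0.78, and Eef1akmt2 remained past both thresholds at 1.52. Among the eIF3 genes, Eif3l (-0.53), Eif3k (-0.43) and Eif3i (-0.36) stayed lower and Eif3j1 (0.61), Eif3c (0.54) and Eif3a (0.50) stayed higher, while Eif3e lost its call at 0.05. In eIF2, Eif2s2 stayed higher at 0.59, and the calls of Eif2s1, Eif2s3x, Eif2s3y and Eif2a were lost. The part of GC content in the direction of change was not tested further.

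Other genes of translation control, taken from lists of regulators and partners, were more often higher than lower. Of 74 genes tested, 40 were higher (54.1%) and 18 lower (24.3%), beside the 40.2% and 32.3% of all genes tested. With the GC trend removed, 31 of the 74 were higher and 18 lower, beside 37.2% and 36.8% of all genes in that fit. Past both thresholds were 7 (9.46%), all upward, near the 8.71% of all genes tested that passed both upward. Downward, 8.44% of all genes tested passed both. The median log2 fold change was 0.28 over the 74 genes. The counts of each list below stand beside the same 40.2% higher and 32.3% lower of all genes tested. The 4 eIF2 kinases themselves, Eif2ak1 to Eif2ak4, were not called, with log2 fold changes from -0.07 to 0.09.

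Around the eIF2 kinases, 6 of 13 genes were higher (46.2%) and 3 lower (23.1%), beside 40.2% and 32.3% of all genes tested. Impact, which keeps the kinase GCN2 inactive by binding GCN1, had 16.7 ± 3.41 TPM under LPS and 63.7 ± 4.59 TPM under LPS+UDCA, the highest log2 fold change of these lists (1.89, SE 0.122, adjusted p = 1.0e-06). The lowest of these 13 genes was Ppp1cc, a catalytic subunit of the phosphatase that acts on eIF2, at -0.87, with 41.7% of its words shared, mostly with Ppp1ccb. In the mTORC1 pathway and the kinases of the eIF4 factors, 11 of 17 genes were higher and 3 lower. Sesn2 and Ddit4, whose products restrain mTORC1, rose from 50.7 ± 2.84 to 139 ± 6.22 TPM and from 61.0 ± 3.57 to 149 ± 2.09 TPM. Pdcd4, an inhibitor of the eIF4A helicase, rose from 1.70 ± 0.408 to 6.24 ± 0.446 TPM (log2 fold change 1.43). Rps6ka1, a kinase downstream of ERK, fell from 62.4 ± 3.67 to 31 ± 2.23 TPM (-0.99).

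Among the poly(A)-binding proteins and their partners, 4 of 8 genes were higher and 2 lower. Paip1, which joins the poly(A)-binding protein to the initiation factors, rose from 15.5 ± 0.751 to 35.0 ± 3.37 TPM. Larp4, which binds poly(A), rose from 7.86 ± 1.82 to 16.9 ± 1.76 TPM, and Paip2b, an inhibitor of the poly(A)-binding protein, fell by 0.43 on the log2 scale. Of 9 helicases and accessory proteins, 6 were higher and 3 lower. Gigyf2, a partner of the cap-binding repressor made by Eif4e2, rose from 19.6 ± 1.80 to 40.8 ± 2.67 TPM, and the helicase gene Dhx9 fell from 26.3 ± 3.06 to 12.9 ± 0.642 TPM. Of 8 termination, recycling and reinitiation factors, 6 were higher and 1 was lower, from Abce1, which splits ribosomes after termination, at 0.72 to Mcts2 at -0.57.

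The enzymes that make hypusine on eIF5A and diphthamide on eEF2 had 2 of 9 genes higher and 3 lower. Dohh, the hydroxylase of the second hypusine step, fell from 102 ± 3.14 to 57.9 ± 2.78 TPM, alongside its substrate gene Eif5a, although 46.2% of its words are shared with the overlapping Gm48551. Dph6, an enzyme of diphthamide synthesis, rose by 0.56 on the log2 scale, a call that was lost with the GC trend removed (0.18). The mitochondrial initiation, elongation and release factors were again split, with 5 of 10 higher and 3 lower. Gfm2, a mitochondrial ribosome recycling factor, rose from 19.8 ± 0.604 to 37.3 ± 1.13 TPM, and Tufm, the mitochondrial counterpart of eEF1A, fell from 116 ± 3.72 to 68 ± 4.04 TPM. Of the Tufm words, 58.2% also occur in Gm9755.

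**Figure D5:**
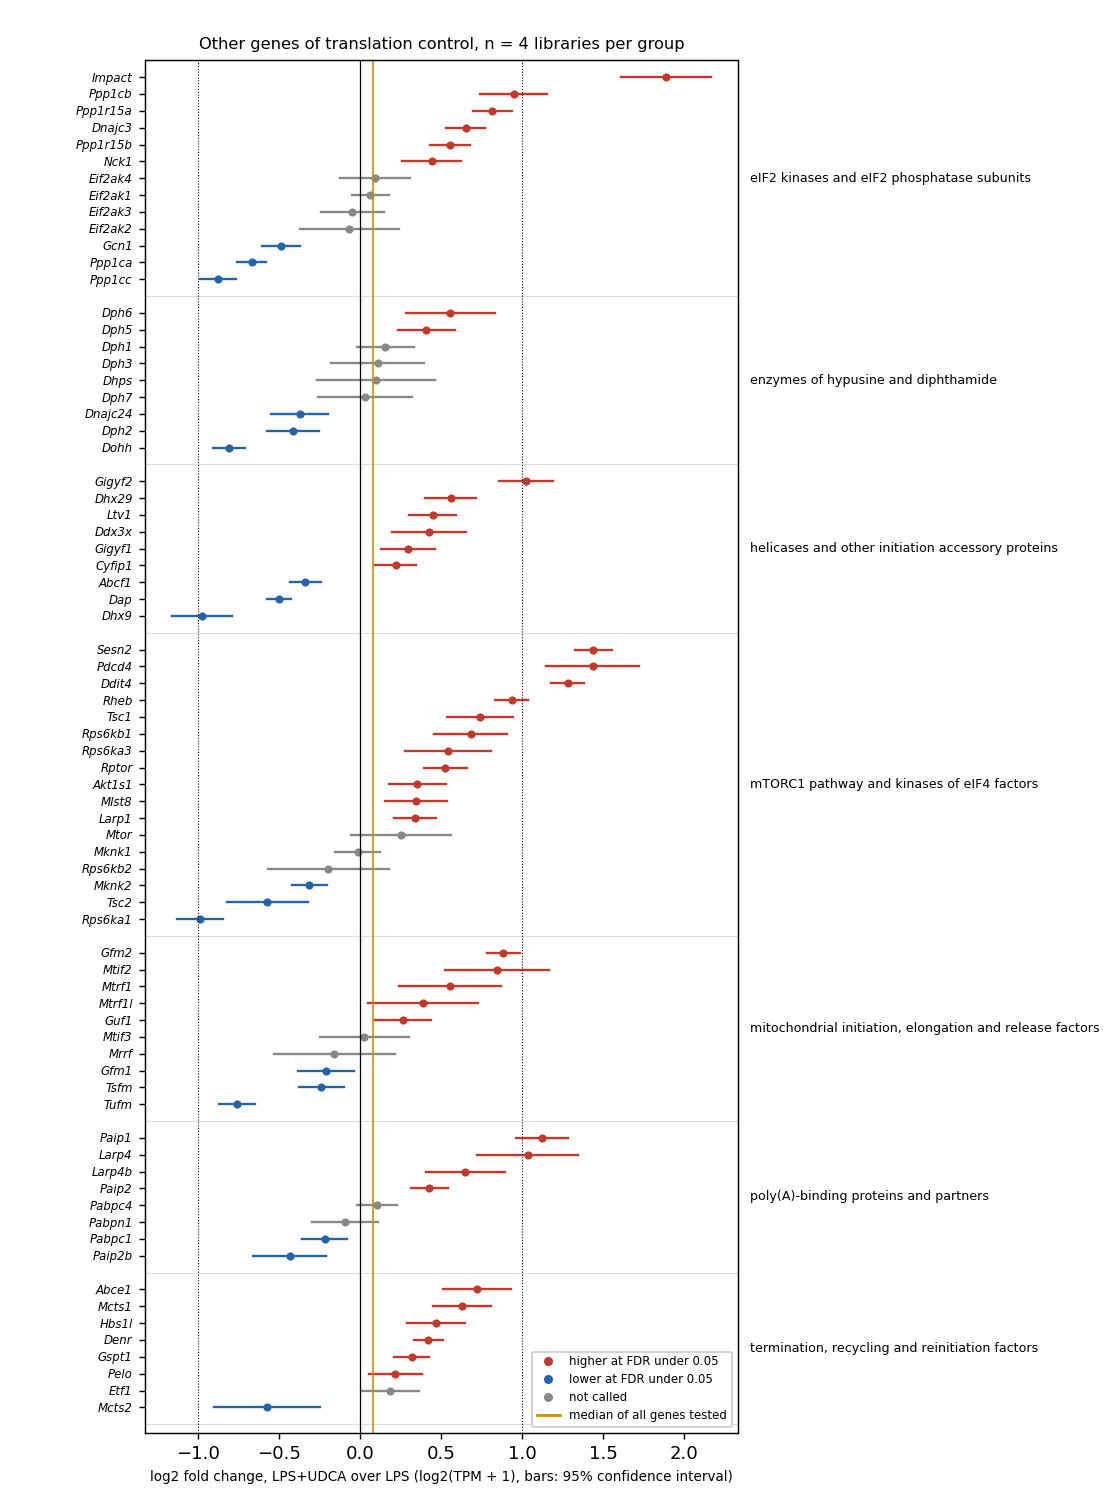
The plot shows log2 fold changes (LPS+UDCA over LPS, on log2(TPM + 1)) with 95% confidence intervals for the 74 other genes of translation control, grouped by list, with the median of all genes tested as a line. The 7 genes past 2-fold all lie on the higher side, led by Impact at 1.89, and the eIF2 kinases lie near 0.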

How the data were processed

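Total RNA of 4 LPS and 4 LPS+UDCA libraries of J774A.1 cells was sequenced on an Illumina HiSeq instrument after preparation with a TruSeq kit, and analysed on a commercial cloud platform. The authors deposited 1 table of TPM per gene with 2 decimals. The submitters' processing notes name Bowtie 0.12.2 and the builds mm10 and GRCm38, with no role stated. The counting program, its strand setting, the annotation and filters are not given in the sources used here. Groups were taken from the sample labels. The study's methods describe UDCA with or without LPS, while the labels compare LPS with LPS + UDCA.

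Genes whose mean reached 1 TPM were fitted as log2(TPM + 1) with limma 3.58.1 (lmFit, eBayes with a trend, R 4.3.3), with Benjamini-Hochberg adjustment over all 11796 genes. Calls were made at an FDR under 0.05, and at 2-fold as well, the thresholds of the study. The fit was tested on simulated data. The genes, the lists and the tests were chosen with earlier results of these data known, so no p-value is given for a list or a sum.

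Genes named by rule were those past both thresholds, the 5 highest and 5 lowest log2 fold changes, the 5 most abundant, the extremes of each role group or list and those next to the 1 TPM minimum. Any other gene was named with its values seen. Positions, transcripts and words of 31 bases shared between genes came from GENCODE M21 on GRCm38, which holds 55227 of the 55487 listed identifiers. Promoters came from RefSeq on GRCm38.p6. No pair of the 28 library pairs held identical values. The libraries share replicate numbers between groups, but same-numbered libraries did not deviate together in every pair (correlations -0.035 to 0.15). Their mean correlation was 0.088, against -0.029 for differently numbered libraries. TPM keeps no depth, so precision rests on the spread over 4 libraries per group. Alternatives covered normalization, filter, pseudocount, variance trend, replicate block, GC content and leaving out each library. Tables and figures were made in Python 3.11.15 (pandas 2.3.3, matplotlib 3.10.9).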

Additional observations from a re-analysis of the deposited data

Results flagged for a closer look

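In 10 of 159 gene and group combinations (each translation factor or named gene of the lists, in each group of 4 libraries), 1 library stood apart from the other 3 by Dixon's test at 95%, where chance gives about 1 in 20, or 7.95. Among the translation factors, LPS+UDCA replicate 3 was lowest for Eef1akmt1 (34.47 TPM) and Eif4e2 (149.42 TPM), LPS+UDCA replicate 4 was lowest for Eif3l (130.36 TPM), and LPS+UDCA replicate 2 was highest for Eif4g3 (31.89 TPM) and lowest for Eif4h (183.9 TPM). LPS replicate 4 was highest for Eif2b1 (38.82 TPM), and LPS replicate 3 was lowest for Eif4ebp2 (15.44 TPM) and highest for Eif5a (1732.69 TPM). Among the other genes of translation control, LPS+UDCA replicate 1 was highest for Paip2b (16.72 TPM) and LPS+UDCA replicate 2 was highest for Rps6ka1 (34.3 TPM).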

How the results depend on the processing

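Over the alternatives, single-gene log2 fold changes kept their direction and their side of the threshold in 1271 cases and changed sign in 23, and without a change of sign a call was lost in 30 and gained in 34. The genes past both thresholds upward numbered 2 once the GC content trend was removed, Eef1akmt2 and the pseudogene Eif4a-ps4. They numbered 5, with Eif3j1 added, at a pseudocount of 0.1, again counting the pseudogene, whose call carries no weight. The median log2 fold change of the translation factors was -0.068 with median-of-ratios size factors, 0.078 with quantile normalization, -0.071 with the median of all genes subtracted and -0.029 with the GC content trend removed. Their summed TPM had a ratio of 1.05 with median-of-ratios size factors and 0.939 without Eef1a1. With median-of-ratios size factors Eef1g was at -0.068, Eif4a1 at -0.076 and Eif4h at -0.055, and with the median subtracted at -0.071 (a call gained), -0.079 and -0.058. In both of these fits Eefsec, Eif3f, Eif3g, Eif4e2, Eif4e3, Eif4ebp2 and Eif6 gained a call as lower. With size factors they were at -0.27, -0.20, -0.098, -0.15, -0.32, -0.17 and -0.18, in that order. With quantile normalization Eif1ad was at 0.048, Eif3g at 0.059, Eif3h at 0.0095 (a call lost) and Eif4e2 at 0.011, and Eef1a1, the top-ranked gene of each library, had no difference by construction. That fit also called Eef1g, Eif4a1, Eif4e and Eif4h higher, and Eefsec, Eif4e3 and Eif4ebp2 lower. With the GC content trend removed Eif2a was at -0.019, Eif2s1 at -0.10, Eif2s3x at -0.0056, Eif3g at 0.13, Eif4a1 at -0.087, Eif4e at -0.34, Eif4g2 at -0.057 and Eif6 at 0.093. Of these, Eif2a, Eif2s1, Eif2s3x and Eif4g2 were called higher without that step and lost their calls, and Eif3g, Eif4e and Eif6 gained one. The calls of Eef1d, Eef1e1, Eef2, Eif1a, Eif1b, Eif2s3y and Eif3e were lost as well.

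Without 1 library at a time, 26 to 27 translation factor genes were higher and 19 to 24 lower, 4 to 6 passed both thresholds upward and 0 downward, the median was 0.0073 to 0.021 and the summed ratio 1.10 to 1.11. The upward counts include the pseudogene Eif4a-ps4. Eif1b lost its call without LPS replicate 1, 2 or 3 or LPS+UDCA replicate 2 or 4 (log2 fold changes -0.19, -0.20, -0.16, -0.18 and -0.18), Eif4g2 without LPS replicate 2 or 3 or LPS+UDCA replicate 4 (0.24, 0.20 and 0.22), and Eif4g3 without LPS replicate 1 or 4 or LPS+UDCA replicate 1, 3 or 4 (-0.17, -0.21, -0.19, -0.20 and -0.19). Calls were gained by Eefsec without LPS replicate 4 (-0.24) or LPS+UDCA replicate 2 (-0.24), by Eif4e3 without LPS replicate 2 (-0.32) or LPS+UDCA replicate 2 (-0.31), and by Eif3f (-0.16) and Eif6 (-0.12) without LPS+UDCA replicate 2. Values changed sign for Eif4a1 (-0.024 to 0.022, negative without LPS replicate 1 or LPS+UDCA replicate 3), Eef1g (-0.0028 to 0.024, negative without LPS+UDCA replicate 1), Eif1ad (-0.087 to 0.0045) and Eif1ax (-0.13 to 0.0018), both positive without LPS+UDCA replicate 3. The log2 fold change of Eif4a-ps4 ran from 2.22 to 3.63. Of the lists, 38 to 41 genes were higher and 17 to 19 lower without 1 library.

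With the replicate number as a block, 28 translation factor genes were higher and 21 lower. The labels tie the numbers to no shared culture or day, so the numbers were not treated as pairs. Same-numbered libraries correlated by 0.088 on average (-0.035 to 0.15) and differently numbered ones by -0.029, and 5 of 8 libraries correlated best with their own number. Whether the numbers mark pairs cannot be told from these values. Under the replicate block Eif4g3 lost its call and Eefsec and Eif4e gained one.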
